A study of Homo sapiens with 6 samples.

Results

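The cytosolic chaperonin CCT, also called TRiC, was followed through its 8 subunit genes (TCP1, CCT2, CCT3, CCT4, CCT5, CCT6A, CCT7 and CCT8) in SK-OV3 cells after silencing of PVT1. The members were the genes whose symbol equals one of these names, 8 of the 59653 genes in the count table, and all 8 passed the filter on low counts. SK-OV3 is a human ovarian cancer cell line, and PVT1 is a long non-coding RNA that was studied there for its part in tumor cell behavior. The cells were transfected with 50 nM of an siRNA pool against PVT1 (siPVT1) or of a non-targeting pool (siControl) and grown in full serum, RNA was collected after 48 h, and 3 libraries were sequenced for each group. Both groups went through the same lipid transfection (Lipofectamine RNAiMAX), siPVT1 is a single pool of siRNAs in 1 cell line, and no untransfected cells were included. The sources do not say whether the libraries of a group came from separate cultures, so the p-values measure only the spread between these libraries, which may be technical.

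CCT is the chaperonin of the eukaryotic cytosol, a barrel of stacked rings in which each ring is built from all the different subunits, each in a fixed place. It encloses unfolded proteins and releases them after ATP hydrolysis, and actin and tubulin, along with many proteins made of WD repeats, depend on it to reach their native form. Prefoldin delivers nascent actin and tubulin chains to CCT, phosducin-like proteins act as its cofactors, and the tubulin cofactors take over tubulin once CCT releases it. TCP1, CCT2, CCT4 and CCT5 form the side of the ring that binds and hydrolyses ATP more readily, and CCT3, CCT6A, CCT7 and CCT8 form the other side. A complex with a fixed place for each subunit uses its subunits in equal amounts, and the comparison between siPVT1 and siControl shows how far the mRNA levels of the subunits moved together.

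The promoters of the subunits are shown first, because the genes lie apart in the genome (on chromosomes 1, 2, 5, 6, 7, 12 and 21, with CCT4 and CCT7 both on chromosome 2) and what they share before their start sites can only be read there. By GENCODE v44 on GRCh38, CCT2 (chr12:69585426-69601570), CCT5 (chr5:10249929-10266389), CCT6A (chr7:56051685-56063989) and CCT7 (chr2:73233420-73253021) are transcribed from the plus strand, and TCP1 (chr6:159778498-159789703), CCT3 (chr1:156308968-156367873), CCT4 (chr2:61868085-61888671) and CCT8 (chr21:29055805-29073797) from the minus strand. RefSeq promoters on GRCh38.p14 were matched for 7 of the 8 genes, and for 6 of them (TCP1, CCT2, CCT3, CCT4, CCT7 and CCT8) the start was also that of the GENCODE canonical transcript. The 250 bases before the start were searched on both strands for short motifs bound by factors that often act at such promoters. The letters CCAAT (bound by NF-Y) were found in TCP1, CCT2, CCT3 and CCT8, 4 of the 6 promoters, as against 32.0% of 35116 RefSeq promoters. GGGCGG (bound by SP1) was found in the same 4 promoters, as against 42.6% of all. CCGGAA (bound by ETS factors) was found only in CCT2 (1 of 6, against 14.5% of all), and GAANNTTC, a pair of inverted heat shock units, only in TCP1 (1 of 6, against 5.78%). The other arrangement of that pair, TTCNNGAA (6.62% of all promoters), and CACGTG, the E-box letters bound by MYC (6.34%), were in none of the 6. A match describes letters in this window and is neither a binding site nor a cause. CCT4 and CCT7 held none of the letters searched. Below are the stretches free of annotated exons from 3 promoters of subunits that fell (CCT2, TCP1 and CCT3) and from that of CCT8, to set them side by side, written 5′ to 3′ on the strand of the gene with the motifs in capitals, CCAAT (or ATTGG where it lies on the opposite strand), GGGCGG (or CCGCCC) and CCGGAA (or TTCCGG). They lie at chr12:69585209-69585425 on the plus strand, and at chr6:159789704-159789811, chr1:156338312-156338502 and chr21:29073798-29073898 on the minus strand.
CCT2: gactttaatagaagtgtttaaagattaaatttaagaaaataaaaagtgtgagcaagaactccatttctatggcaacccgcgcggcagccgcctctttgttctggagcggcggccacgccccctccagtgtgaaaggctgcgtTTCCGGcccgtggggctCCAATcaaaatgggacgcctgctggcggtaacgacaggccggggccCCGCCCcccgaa
TCP1: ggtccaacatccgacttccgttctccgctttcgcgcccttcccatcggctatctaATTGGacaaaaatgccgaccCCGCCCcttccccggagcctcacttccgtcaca
CCT3: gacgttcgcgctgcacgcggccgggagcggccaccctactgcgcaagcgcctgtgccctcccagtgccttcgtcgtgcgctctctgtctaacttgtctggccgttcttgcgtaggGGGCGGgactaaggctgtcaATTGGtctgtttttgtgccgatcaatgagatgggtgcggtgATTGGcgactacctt
CCT8: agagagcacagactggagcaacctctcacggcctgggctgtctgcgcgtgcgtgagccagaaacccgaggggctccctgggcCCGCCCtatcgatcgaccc
CCT2 held CCAAT from 91 to 87 bases before its start, CCGGAA at 108 to 103, and GGGCGG at 45 to 40. CCT3 held CCAAT at 75 to 71 and again at 34 to 30 bases before its start. The CCAAT of CCT8, at 63 to 59 bases before the start, lay in an annotated exon outside the printed stretch, as did the heat shock pair of TCP1 at 231 to 224 bases and a second CCGGAA of CCT2 at 14 to 9 bases.

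The libraries held between 28383171 and 35059576 estimated counts. Levels are given as CPM, the counts scaled to a common library total after TMM normalization, and differences as log2 fold changes of siPVT1 over siControl with their standard errors (SE) from edgeR. The silenced gene PVT1 fell from 115 ± 14.02 to 69.9 ± 4.94 CPM (SD, n = 3), a log2 fold change of −0.72 (SE 0.097, adjusted p = 0.000342 by the edgeR quasi-likelihood test, Benjamini-Hochberg adjusted), and was lower in all 3 siPVT1 libraries. Counts differed between siPVT1 libraries by more than between siControl libraries, with chi-square values per degree of freedom of 8.74 to 46.3 as against 1.72 to 5.70, and siPVT1 replicate 3 stood furthest apart. PVT1 was no higher there than in the other siPVT1 libraries (75.5, 67.8 and 66.3 CPM in replicates 1, 2 and 3). The epithelial markers KRT7, KRT8, KRT18, KRT19 and ERBB2 were all detected, 3 higher and 2 lower in siPVT1, beside 29.5% higher and 28.4% lower of all genes tested. Of 7 markers of other cell types, PTPRC and DCN had at most 2 counts in any library, 4 of the 5 tested were higher in siPVT1 and none was lower, and the summed level of the 7 was 26.1 to 27.8 CPM in siControl and 55.4 to 67.7 CPM in siPVT1. In bulk RNA, a change in the mix of cells cannot be told apart from a change of RNA within each cell, and the part of these markers in the results below was not tested.

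CCT subunit mRNAs were lower in siPVT1 cells, by amounts that differed from subunit to subunit. TCP1, CCT2, CCT3, CCT4, CCT6A and CCT7 fell, CCT5 and CCT8 did not pass the test, and no subunit rose. The 6 of 8 called lower (adjusted p under 0.05 over all genes tested) stand against 28.4% of the 19008 genes tested, and the 0 of 8 called higher against 29.5%. No subunit passed the 2-fold threshold of the study, which 9.64% of genes tested passed on the lower side. In 5 of the 8, every siPVT1 library lay below every siControl library, which was so in 32.3% of all genes tested. The subunits are abundant mRNAs, between the 96.7th and the 98.9th percentile of all genes tested. Among the 619 genes at least as abundant as the lowest of them, the 8 subunits included, 23.1% were called lower. The median log2 fold change was −0.44 over the 8 subunits, 0.0014 over all genes tested and 0.22 over those 619 abundant genes, of which 12.4% lay below the subunits' median.

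**Figure D1:**
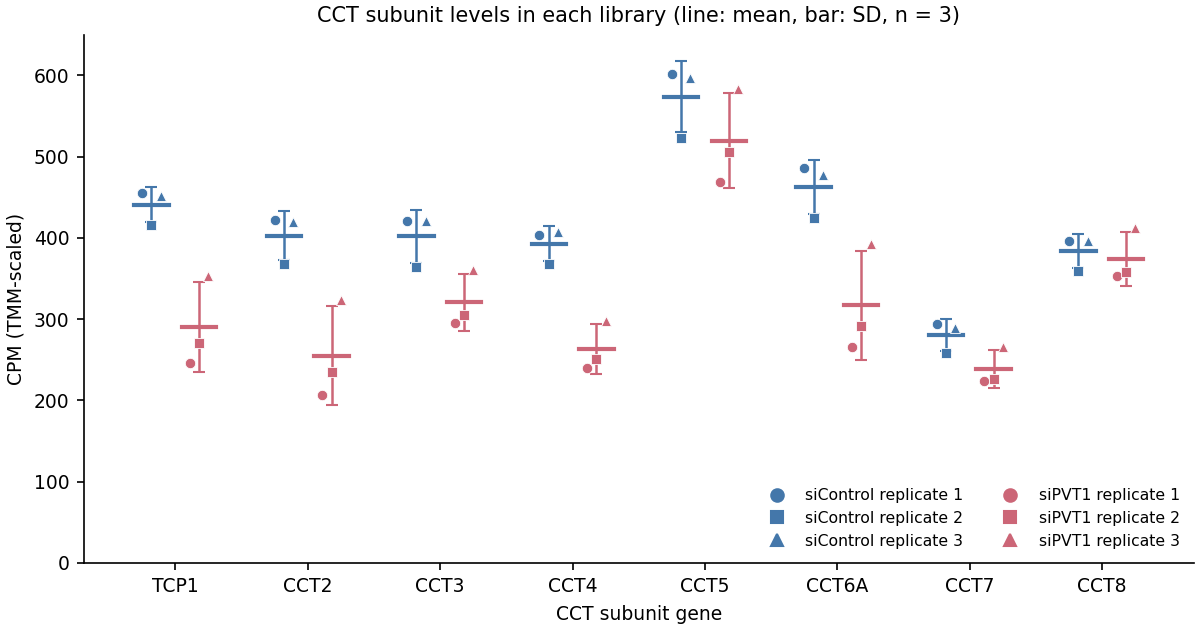
Level of each CCT subunit gene in each library, in TMM-scaled CPM (y axis, from 0), with siControl in blue and siPVT1 in red; symbols mark the replicate, horizontal lines the mean and bars the SD (n = 3). The siPVT1 libraries lie below all siControl libraries for TCP1, CCT2, CCT3, CCT4 and CCT6A and overlap with them for CCT5, CCT7 and CCT8, and siPVT1 replicate 3 is the highest siPVT1 library for every subunit.

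On the ATP-hydrolysing side of the ring, CCT2 (the beta subunit) was at 422, 368 and 419 CPM in siControl replicates 1, 2 and 3 and at 207, 235 and 323 CPM in siPVT1 replicates 1, 2 and 3. The groups did not overlap, and siPVT1 replicate 1 stood at 51.3% of the siControl mean while replicate 3 stood at 80.3%. CCT2 fell from 403 ± 30.4 to 255 ± 60.8 CPM (SD, n = 3), the largest decrease of the 8, with a log2 fold change of −0.66 (95% interval −1.01 to −0.31, adjusted p = 0.00612 by the edgeR quasi-likelihood test, Benjamini-Hochberg adjusted). TCP1, the alpha subunit that gave the complex one of its names, was at 455, 416 and 452 CPM in the siControl libraries and at 246, 271 and 353 CPM in the siPVT1 libraries. All 3 siPVT1 libraries were again lower than any siControl library, the nearest at 80.0% of the siControl mean. TCP1 fell by 0.60 on the log2 scale (SE 0.12, adjusted p = 0.00341 by the same edgeR test). CCT4, the delta subunit, was at 404, 368 and 407 CPM in siControl and at 240, 251 and 298 CPM in siPVT1. Its siPVT1 libraries lay closer together than those of CCT2 and TCP1, at 61.0%, 64.0% and 75.9% of the siControl mean. CCT4 fell by 0.58 on the log2 scale with an SE of 0.090, and had the smallest adjusted p of the 8 (0.000784, edgeR). CCT5, the epsilon subunit and the highest of the 8 by CPM, was at 602, 523 and 596 CPM in siControl and at 469, 506 and 583 CPM in siPVT1. The groups overlapped, since siPVT1 replicate 3 lay above siControl replicate 2. The log2 fold change of CCT5 was −0.14 (95% interval −0.36 to 0.072, adjusted p = 0.223, edgeR), so a fall by as much as 0.36 on this scale lies within its interval.

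On the other side of the ring, CCT6A (the zeta subunit) was at 486, 424 and 477 CPM in siControl and at 266, 292 and 393 CPM in siPVT1. The groups did not overlap, and siPVT1 replicate 3 stood well above the other siPVT1 libraries, at 84.9% of the siControl mean as against 57.6% and 63.1%. CCT6A fell by 0.55 on the log2 scale (SE 0.14, adjusted p = 0.0093, edgeR quasi-likelihood test, Benjamini-Hochberg adjusted). CCT3, the gamma subunit, was at 421, 364 and 421 CPM in siControl and at 296, 305 and 361 CPM in siPVT1. Its groups came close without overlapping, siPVT1 replicate 3 lying just under siControl replicate 2. CCT3 fell by 0.33 on the log2 scale (SE 0.094, adjusted p = 0.0168, edgeR). CCT7, the eta subunit, was at 294, 258 and 289 CPM in siControl and at 223, 226 and 265 CPM in siPVT1. Here siPVT1 replicate 3 was higher than siControl replicate 2, and the groups overlapped. CCT7 fell by 0.23 on the log2 scale with an SE of 0.086, close to the threshold (adjusted p = 0.0448, edgeR). CCT8, the theta subunit, was at 396, 360 and 396 CPM in siControl and at 353, 358 and 413 CPM in siPVT1. The highest library of all 6 was siPVT1 replicate 3, and the means were 384 ± 20.9 and 374 ± 33.3 CPM (SD, n = 3). The log2 fold change of CCT8 was −0.036 (95% interval −0.22 to 0.14, adjusted p = 0.715, edgeR). On either side of the ring 3 of 4 subunits were called lower, beside 28.4% of all genes tested.

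Within each group the subunits went up and down together from library to library. siControl replicate 2 was the lowest siControl library for all 8 genes and siPVT1 replicate 3 the highest siPVT1 library for all 8. This order was not particular to the subunits. PIH1D1 and TBCA, which rose in siPVT1, had it too, and PFDN5 was also lowest of siControl in replicate 2 but lowest of siPVT1 in replicate 3. How many of all genes had this order was not counted. Summed over the 8 genes, the level was 3478, 3081 and 3457 CPM in siControl and 2300, 2444 and 2989 CPM in siPVT1. No siPVT1 library reached the lowest siControl library, and the siPVT1 mean of 2577 ± 363 CPM was 77.2% of the siControl mean of 3339 ± 223 CPM (SD, n = 3). The exact two-sided permutation test of this sum gave p = 0.1, the smallest that 3 libraries against 3 can give. Before scaling, the 8 genes took 0.335% to 0.360% of the counts of a siControl library and 0.217% to 0.282% of those of an siPVT1 library.

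The result depended on single libraries for the subunits with small differences. Without siPVT1 replicate 3 all 8 subunits were called lower, CCT2 at a log2 fold change of −0.88, CCT5 at −0.25 and CCT8 at −0.13. Of all genes tested in that fit, 6203 of 18556 were called lower. CCT3 lost its call without siControl replicate 1, siControl replicate 3 or siPVT1 replicate 2 (adjusted p = 0.0504 to 0.0599, edgeR). CCT7 lost its call without these and also without siPVT1 replicate 1 (adjusted p = 0.0692 to 0.134, edgeR), so that 4 or 5 subunits were called there. In those fits, between 4224 of 18431 and 5339 of 18493 genes tested were called lower. TCP1, CCT2, CCT4 and CCT6A were called lower under all 14 alternatives that were run. Scaling by total counts in place of TMM moved the median of all genes to −0.15 and called all 8 subunits lower, CCT5 at −0.29 and CCT8 at −0.19. Relative to that median, they stood at −0.14 and −0.038, and CCT2 at −0.66. With total counts, 6879 of 19008 genes tested were called lower, as against 5395 with TMM.

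**Figure D2:**
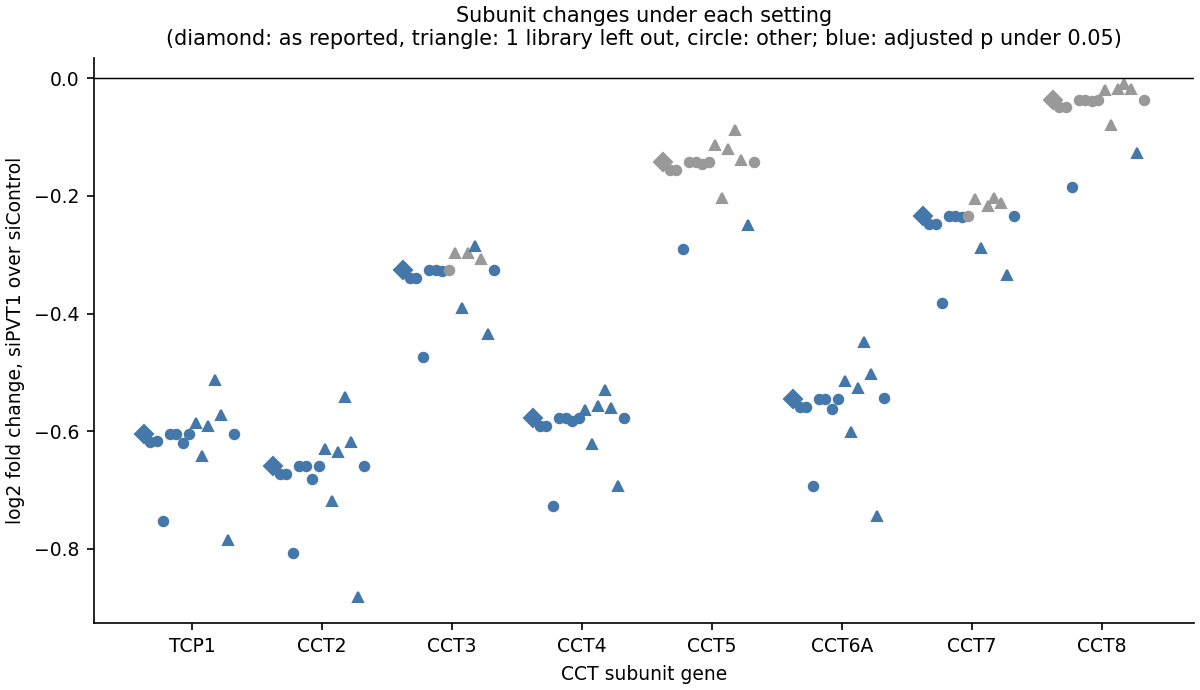
Log2 fold change (siPVT1 over siControl, y axis) of each CCT subunit gene (x axis) as reported and under the alternatives, in the same order for every gene; diamonds mark the reported value, triangles the fits without 1 library, circles other settings, and blue an adjusted p under 0.05. TCP1, CCT2, CCT4 and CCT6A stay blue and below −0.44 throughout, CCT3 and CCT7 lose the call in some settings, and CCT5 and CCT8 are blue only with total count scaling and without siPVT1 replicate 3.

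The subunits moved by unequal amounts, and the make-up of the CCT mRNA pool was compared between the groups. This was followed as the share of each subunit in the summed CPM per kilobase of the canonical transcript, a quantity within each library that no scaling of the library can move. In siControl the shares were nearly the same in the 3 libraries, with standard deviations of 0.058 to 0.23 percentage points. CCT8 took 13.86%, 14.22% and 13.97% of the pool in the siControl libraries and 18.7%, 17.9% and 16.8% in siPVT1 replicates 1, 2 and 3. Its CPM was not called different, and its share lay 3.77 percentage points higher in siPVT1, the largest difference of the 8. CCT5 (11.8% ± 0.12 to 13.9% ± 0.43) and CCT7 (10.3% ± 0.058 to 11.3% ± 0.49) also took larger shares in siPVT1 (SD, n = 3). CCT2 went the other way, from 14.2% ± 0.13 in siControl to 11.6% ± 1.11 in siPVT1 (SD, n = 3). TCP1, CCT4 and CCT6A also had lower shares in siPVT1, at differences of −1.93, −1.46 and −1.42 percentage points. For CCT3 the groups overlapped (13.8% ± 0.21 and 14.3% ± 0.44, exact permutation p = 0.3). The other 7 did not overlap between the groups, each with an exact two-sided permutation p of 0.1, the smallest possible, or 0.114 adjusted over the 8 shares. Every siPVT1 library went the same way for these 7, and every difference kept its direction with other gene lengths and without any 1 library. The shares of a library add up to the whole pool, so they depend on each other and are not separate results. A larger share need not mean a higher level, since CCT7 took a larger share although its CPM was called lower. Shares within other sets of genes were not computed, so there is no background for the number that did not overlap.

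**Figure D3:**
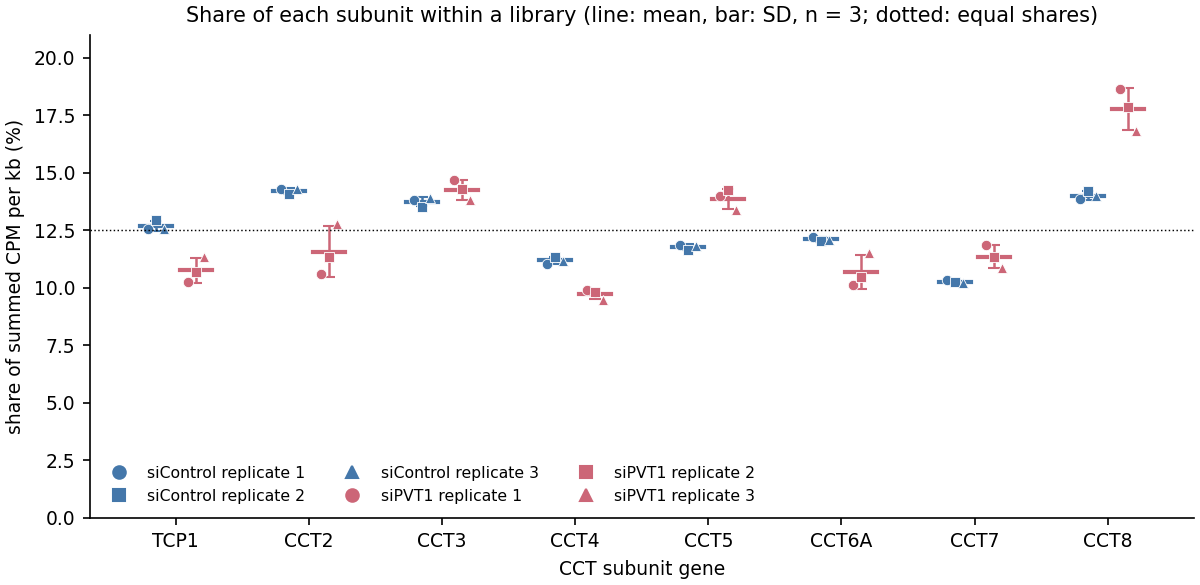
Share of each CCT subunit gene in the summed CPM per kilobase of the 8 genes (percent, y axis, from 0) in each library, with siControl in blue and siPVT1 in red; lines mark the mean, bars the SD (n = 3) and the dotted line an equal share for all subunits. CCT8 lies between 13.9% and 14.2% in siControl and between 16.8% and 18.7% in siPVT1, while TCP1, CCT2, CCT4 and CCT6A lie lower in siPVT1.

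Per kilobase of the canonical transcript, the order of levels in siControl was CCT2 (210 ± 15.9 CPM per kilobase), CCT8 (207 ± 11.3), CCT3 (203 ± 16.5), TCP1 (187 ± 9.20), CCT6A (179 ± 12.9), CCT5 (174 ± 13.3), CCT4 (165 ± 9.15) and CCT7 (152 ± 10.5), each as SD with n = 3. These SDs include the shift of all subunits together between libraries, so they do not measure how steady the order was. From CCT3 down to CCT7 the order was the same in all 3 siControl libraries. CCT2 stood above CCT8 in siControl replicates 1 and 3 and below it in replicate 2. In siPVT1, CCT8 stood alone at the top with 202 ± 17.9 CPM per kilobase, the highest in all 3 libraries, followed by CCT3 with 162 ± 17.7 and CCT5 with 158 ± 17.7. CCT8, CCT3 and CCT5 led in this order in all 3 siPVT1 libraries, and CCT4, at 111 ± 13 CPM per kilobase, was lowest in all 3. The order of CCT2, CCT7, TCP1 and CCT6A between them changed from library to library. The highest subunit was 1.39 times the lowest in siControl and 1.82 times in siPVT1, and the coefficient of variation across the 8 subunits went from 11.4% to 20.9%. The order depends on the length used. With coding length CCT5 was highest and CCT7 lowest in both groups, at ratios of 2.06 and 2.19. With the length of all annotated exons CCT4 was highest in siControl and CCT8 in siPVT1, and the ratios of highest to lowest were 1.86 and 1.89.

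Genes of the proteins that work with CCT were called in both directions. Over 8 lists of partners, clients and related chaperonins, along with 3 transcription factors, 55 of 56 genes were tested, and 16 were called lower, 17 higher and 22 neither, with a median log2 fold change of −0.027, beside 28.4% lower and 29.5% higher of all genes tested. Among the 6 prefoldin subunits, which hand actin and tubulin to CCT, PFDN5 rose and VBP1 fell. PFDN5 was at 99.1, 82.5 and 102 CPM in siControl and at 144, 136 and 129 CPM in siPVT1. All siPVT1 libraries were above all siControl libraries, and the log2 fold change was 0.53 (SE 0.090, adjusted p = 0.00131 by the edgeR quasi-likelihood test, Benjamini-Hochberg adjusted). VBP1 went from 59.6 ± 2.06 to 44.7 ± 5.41 CPM (SD, n = 3), a fall by 0.41 on the log2 scale (adjusted p = 0.00473, edgeR). PFDN1, PFDN2, PFDN4 and PFDN6 were not called, at log2 fold changes of −0.051, 0.22, 0.14 and −0.027. Of the 4 phosducin-like genes, TXNDC9 fell by 0.49 on the log2 scale (adjusted p = 0.034, edgeR), PDCL (0.27) and PDCL3 (−0.22) were not called, and PDCL2 had 0 counts in every library.

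A second prefoldin-like complex works with the R2TP cochaperone in assembling other large complexes. Of these 7 genes, 2 fell and 2 rose, near the 28.4% lower and 29.5% higher of all genes tested. PIH1D1, an R2TP subunit, was at 19.9, 18.5 and 20.7 CPM in siControl and at 47.9, 46.2 and 49.2 CPM in siPVT1. Every siPVT1 library was above every siControl library, with a log2 fold change of 1.28 (SE 0.071, adjusted p = 4.17e-06, edgeR). UXT rose by 0.40 on the same scale, PDRG1 fell by 1.04 and RPAP3 fell by 0.42. The tubulin cofactors, which act on tubulin after CCT, had 3 of 5 genes higher and none lower in siPVT1, beside the same shares of all genes. TBCA, TBCB and TBCD rose by 0.50, 0.54 and 0.35 on the log2 scale, and TBCC (0.13) and TBCE (−0.055) were not called.

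Actin and tubulin are the main clients of CCT. Of 14 actin and tubulin genes, 5 fell, 3 rose and 6 were not called, with a median log2 fold change of −0.096, and 28.4% of all genes tested were called lower and 29.5% higher. Their summed level was 11260 to 11750 CPM in siControl and 7839 to 10290 CPM in siPVT1, a difference that was not tested. ACTB, which encodes beta-actin, was at 4463, 4353 and 4444 CPM in siControl and at 2437, 2604 and 3252 CPM in siPVT1. Like the subunits, it was highest of the siPVT1 libraries in replicate 3, and it fell by 0.68 on the log2 scale (SE 0.10, adjusted p = 0.000688, edgeR). ACTG1, the other actin gene of the list, went from 3273 ± 85.7 to 2341 ± 86.2 CPM (SD, n = 3). It fell by 0.48 on the log2 scale (adjusted p = 0.000163, edgeR). TUBB2A and TUBB3, which encode beta-tubulin isotypes, fell by 1.11 and 0.71 on this scale. TUBA1A, an alpha-tubulin gene, was at 36.9, 35.7 and 37.0 CPM in siControl and at 149, 164 and 177 CPM in siPVT1. It rose by 2.16 (adjusted p = 7.69e-07, edgeR), and TUBB4A (3.21, from 0.22 to 2.03 CPM) and TUBB2B (0.93, from 4.70 to 8.96 CPM) rose from lower levels. Tubulin genes are close paralogs among which Salmon divides reads by estimation, which makes the single values uncertain. Of 12 other clients, 8 rose, 2 fell and 2 were not called. HDAC3, a histone deacetylase, and GNB2 and GNB5, beta subunits of heterotrimeric G proteins with WD repeats, rose by 0.84, 0.68 and 0.60 on the log2 scale, and MLST8 and RPTOR, WD-repeat proteins of mTOR complexes, fell by 0.85 and 0.32.

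**Figure D4:**
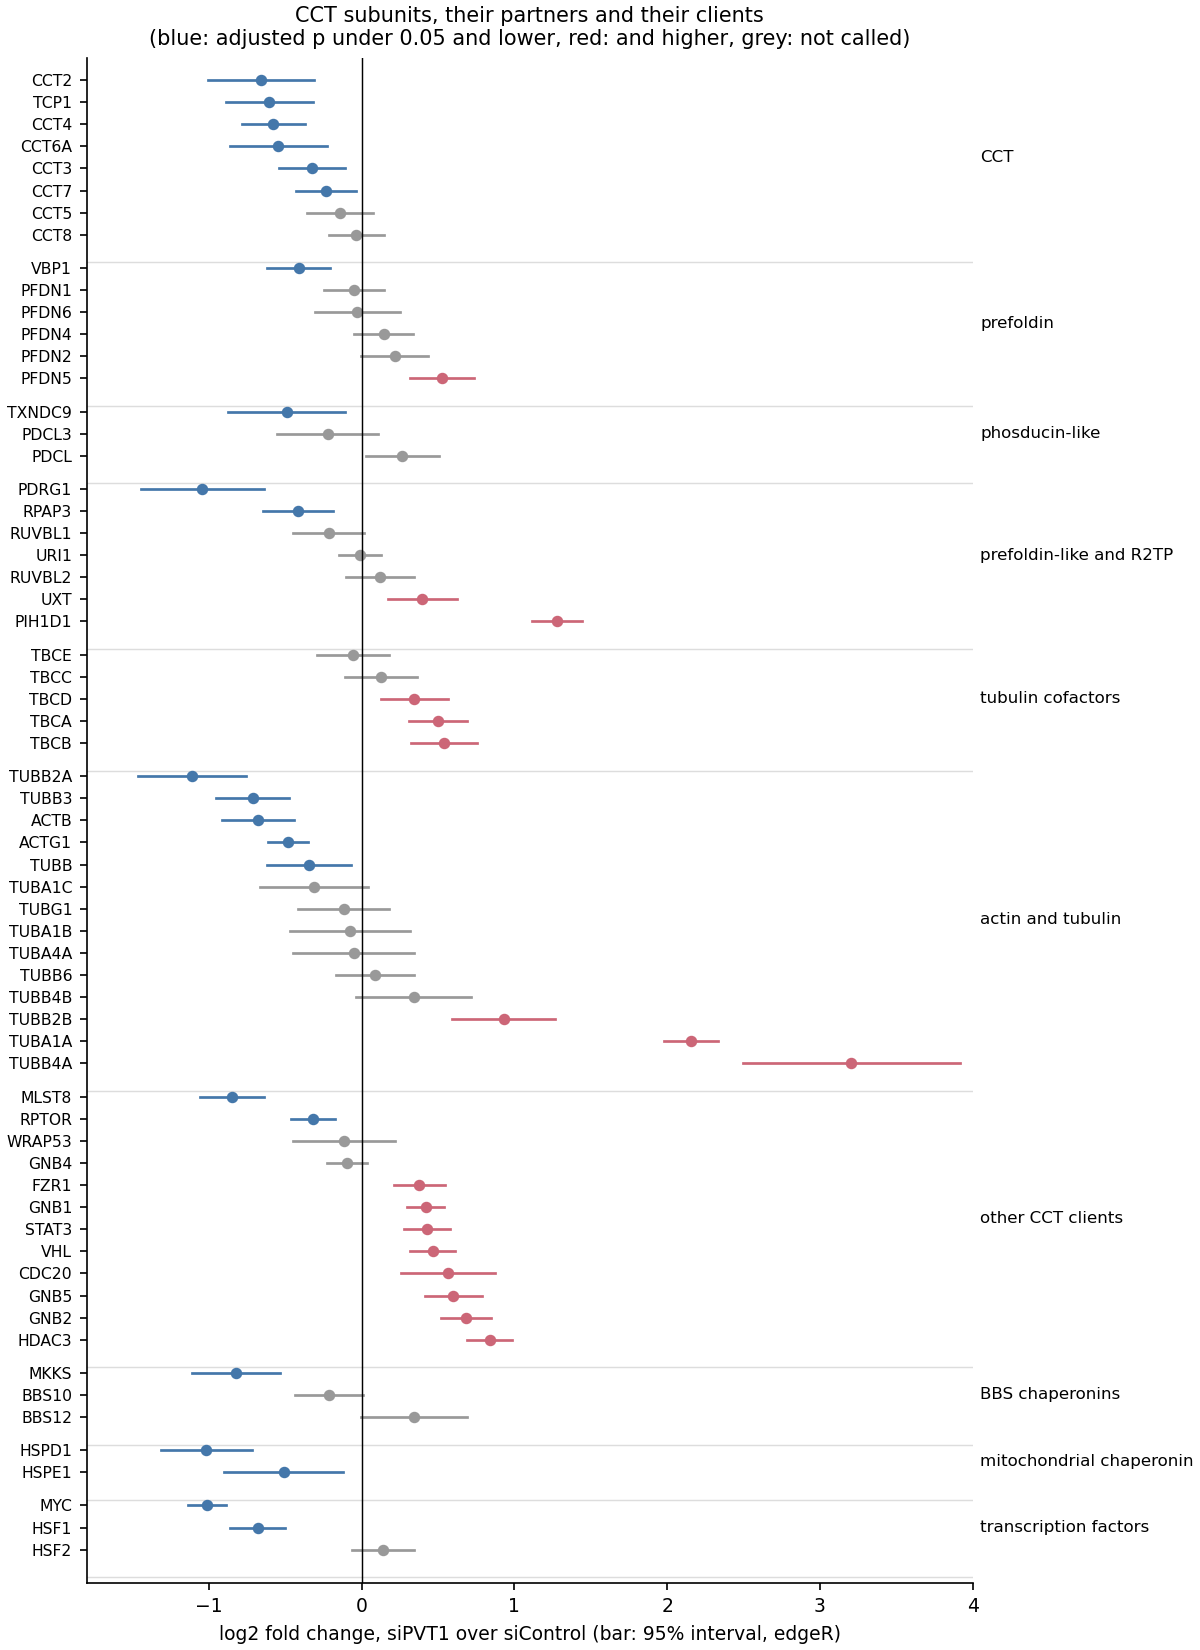
Log2 fold change of siPVT1 over siControl (x axis, points, with 95% intervals from edgeR as bars) for the CCT subunits and each list of partners, clients and related chaperonins; blue genes were called lower, red genes higher and grey genes neither. CCT lies to the left of 0 with 6 of 8 genes blue, the tubulin cofactors have 3 of 5 genes red and the other CCT clients 8 of 12, and prefoldin has 1 of each with 4 grey. Of all genes tested, 28.4% were called lower and 29.5% higher.

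Both genes of the mitochondrial chaperonin, the relative of CCT that folds proteins in the mitochondrial matrix, fell, beside 28.4% of all genes tested. HSPD1, its ring subunit, was at 1060, 922 and 1050 CPM in siControl and at 427, 462 and 609 CPM in siPVT1. It fell by 1.02 on the log2 scale (SE 0.13, adjusted p = 0.000271, edgeR), and its cochaperonin HSPE1 fell by 0.51 (adjusted p = 0.0301), with siPVT1 replicate 3 above siControl replicate 2. HSPD1 and HSPE1 start within 1000 bases of each other on opposite strands of chromosome 2, so their falls may not be separate results. Whether HSPD1 differed from the CCT subunits in its change was not tested. Of the chaperonin-like genes of Bardet-Biedl syndrome, MKKS fell by 0.82 (adjusted p = 0.000689, edgeR), and BBS10 (−0.21) and BBS12 (0.34) were not called. Among transcription factors known to act on chaperone genes, HSF1 fell from 136 ± 3.61 to 84.9 ± 8.31 CPM and MYC from 243 ± 6.18 to 120 ± 3.12 CPM (SD, n = 3), while HSF2, at a log2 fold change of 0.14, was not called. In siPVT1 replicates 1, 2 and 3, HSF1 was at 93.8, 83.6 and 77.4 CPM and MYC at 121, 117 and 123 CPM.

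Copies of the subunit genes were examined because near-identical sequences can share reads. Of 17 paralogs and pseudogenes, 16 were in the table, 9 were tested, 3 were called lower and none higher, beside 28.4% lower and 29.5% higher of all genes tested. CCT6B, the paralog of CCT6A known for its expression in testis, had 30, 32 and 32 counts in siControl and 5, 8 and 14 counts in siPVT1, and fell by 1.68 on the log2 scale (adjusted p = 0.00247, edgeR). The pseudogenes CCT6P3 and TCP1P1 fell by 0.59 and 0.53, close to the 0.55 and 0.60 of CCT6A and TCP1. CCT6P1 (−0.24), CCT6P2 (−0.30), TCP1P3 (−0.30), CCT8P1 (−0.14), CCT5P2 (−0.060) and CCT5P1 (0.10) were not called. Of all exact 75-base windows in the canonical transcripts, 2.07% in CCT6A, 1.49% in TCP1, 1.40% in CCT8 and 0.87% in CCT5 were also found in transcripts of another gene, and none in CCT2, CCT3, CCT4 or CCT7. Summing CCT6A with its copies left 6 subunits called. TCP1 shares 454 exonic bases with ACAT2 on the opposite strand. ACAT2 rose by 1.66 on the log2 scale, from 41.8 ± 2.02 to 132 ± 9.23 CPM (SD, n = 3), opposite to TCP1, and since the strand setting of the counting is not given in the sources used here, reads from the shared bases could be counted to either gene. Long non-coding RNAs annotated on the opposite strand share 1734 exonic bases with CCT5, 275 and 181 with CCT4 and 85 with CCT8, and were not analysed here.

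By the starts of the canonical transcripts, 5 of the 8 subunit genes begin within 1000 bases of a gene on the opposite strand. The 4 of these neighbours that were tested fell, beside 28.4% of all genes tested. TSACC, counted among them, passed the filter on low counts only through its siControl libraries, so it could hardly have been called higher. With filterByExpr as the filter, 3 neighbours were called lower, beside 5172 of 16901 genes tested. With any annotated start of the neighbour, an alternative chosen after seeing the data, CCT4 joined the 5 subunit genes. The reason is that 1 of the 8 transcripts of COMMD1 begins 68 bases from the start of CCT4. Of 5 tested neighbours, 4 had then fallen, TSACC included. COMMD1 was not called, at a log2 fold change of −0.16 (adjusted p = 0.266, edgeR). PSPH, which encodes the last enzyme of serine synthesis and whose canonical transcript starts 321 bases from that of CCT6A (161 bases for the nearest transcript), was at 23.5, 23.3 and 25.8 CPM in siControl and at 11.6, 11.5 and 12.8 CPM in siPVT1. Its groups lay far apart. It fell by 1.02 on the log2 scale (SE 0.085, adjusted p = 2.83e-05, edgeR), and siPVT1 replicate 3 lay close to the other siPVT1 libraries. MRPL18, a mitochondrial ribosomal protein gene, has its canonical start 865 bases and its nearest annotated start 210 bases from the start of TCP1. It went from 65.3 ± 4.39 to 42.7 ± 6.55 CPM (SD, n = 3), a fall by 0.61 beside the 0.60 of TCP1 (adjusted p = 0.0018, edgeR). ATPSCKMT, with its canonical start 392 bases from that of CCT5, fell by 0.47 (adjusted p = 0.00525, edgeR), whereas CCT5 was not called. TSACC, 234 bases from CCT3 by the same measure, fell by 2.33 (adjusted p = 0.0078, edgeR) on very few counts, 16, 9 and 9 in siControl and 1, 1 and 4 in siPVT1. The neighbour of CCT2, MIR3913-1, had 0 counts. Calls for these neighbours ranged from 3 to 4 over the alternatives.

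The genes most similar to the subunits were found by the root mean square difference between centred log2 CPM over the 6 libraries and the mean of the 8 subunits, among 611 other genes at least as abundant as the lowest subunit. The nearest was HSPA4, an HSP110-family chaperone (difference 0.018 on the log2 scale), followed by RAN, the GTPase of nuclear transport (0.023), TARS1, a tRNA synthetase (0.038), SYNCRIP, an RNA-binding protein (0.039), and CAPRIN1, a protein of stress granules (0.044). HSPA4 was at 358, 320 and 356 CPM in siControl and at 238, 255 and 314 CPM in siPVT1. Like the subunits, it was lowest of siControl in replicate 2 and highest of siPVT1 in replicate 3. The log2 fold changes of the 5 genes ranged from −0.43 to −0.35. These genes were chosen for their likeness over the same libraries, so their values are a description.

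**Figure D5:**
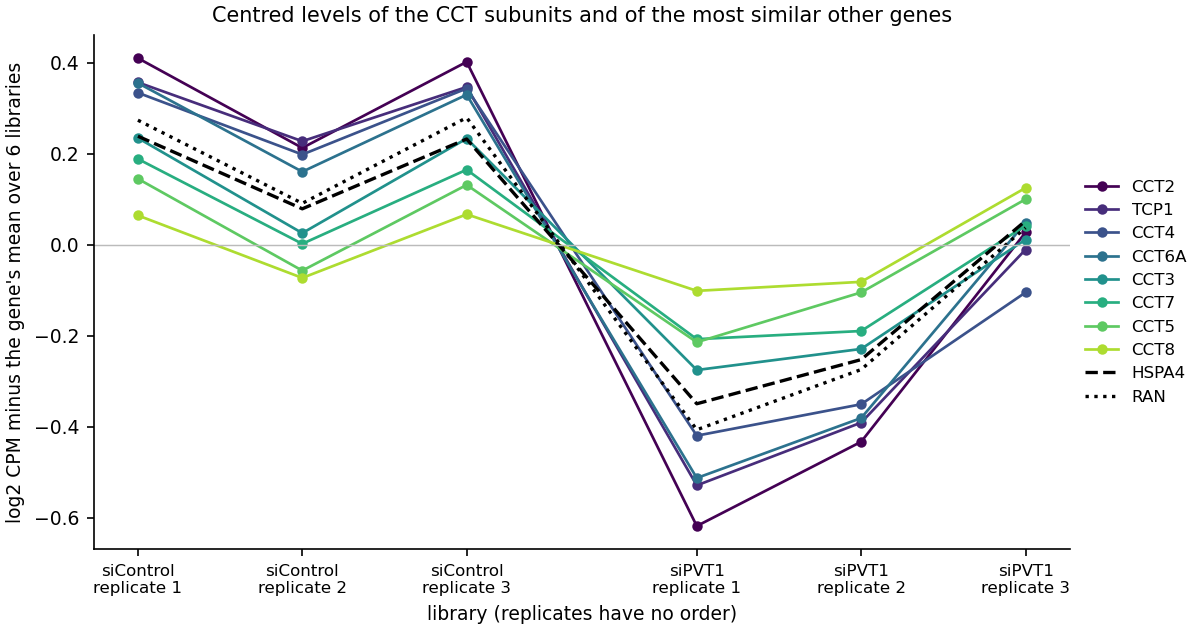
Log2 CPM minus the gene's own mean over the 6 libraries (y axis) in each library (x axis, replicates have no order) for the 8 CCT subunits, colored by their log2 fold change, and for HSPA4 (dashed) and RAN (dotted). All 8 subunits dip in siControl replicate 2 relative to the other siControl libraries and are highest of siPVT1 in replicate 3, with CCT2 the widest and CCT8 the narrowest in range.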

How the data were processed

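RNA-seq of 6 SK-OV3 libraries was analyzed, with groups and replicate numbers taken from the sample labels. Libraries were prepared with a KAPA mRNA kit and read as single-end 75-base reads. The authors aligned them with STAR (2.7.3a per the submitters' processing notes) to GENCODE v35 on GRCh38.p13, counted them with Salmon (0.14.1) and deposited, for each gene symbol, estimated counts in whole numbers that were not normalized. The strand setting is not given in the sources used here.

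From these estimated counts, TMM factors over all genes and a quasi-likelihood fit with the siRNA as the only term were computed in edgeR 4.0.16 (R 4.3.3). The 19008 genes that reached 5 normalized counts in 3 or more libraries were tested, and p-values were adjusted over all of them by the Benjamini-Hochberg method, with calls made under 0.05. Standard errors (SE) were derived from the log2 fold change and the quasi-likelihood F. Single values per library were compared by exact permutation (scipy 1.17.1). DESeq2 1.42.0, its size factors, total counts, other filters, a 1.2-fold test, the replicate number as a block and each library left out were alternatives. Gene positions and lengths came from GENCODE v44 on GRCh38, and promoters from RefSeq on GRCh38.p14.

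The subunits, the gene lists and the tests were chosen with earlier results of these data known. The genes named are all subunits, all tested genes of the lists prefoldin, phosducin-like, tubulin cofactors, BBS and mitochondrial chaperonins, up to 3 lowest and 3 highest called genes of the larger lists, paralogs, neighbours, PVT1, HSF1, HSF2, MYC and the 5 most similar genes. ACAT2 was named because it overlaps TCP1 and COMMD1 because 1 of its transcripts starts near CCT4. ACTG1 was named as the other actin gene beside ACTB.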

Additional observations from a re-analysis of the deposited data

How the results depend on the processing

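The number of CCT subunits called lower was 6, and ranged from 4 to 8 over 14 alternatives. It was 4 in the test against a 1.2-fold change, 8 with total count scaling, 6 with DESeq2, its size factors, no filter, filterByExpr and CCT6A summed with its copies, and 4 to 8 when 1 library was left out. The background moved too. Of the 19008 genes tested, 5395 were called lower as reported, 4063 in the 1.2-fold test, 6879 with total count scaling and 5216 with DESeq2. With 1 library left out, it ranged from 4224 of 18431 genes to 6203 of 18556, the latter without siPVT1 replicate 3. No subunit passed the 2-fold threshold under any alternative, and no log2 fold change of a subunit reversed. The summed level of the subunits was 77.2% of siControl and ranged from 69.7% with total count scaling to 81.4%, and from 71.0% to 81.4% with 1 library left out, at exact permutation p-values of 0.1 to 0.2. Of the genes in the partner lists, 16 were called lower, 11 in the 1.2-fold test and 22 with total count scaling. The number ranged from 13 to 25 with 1 library left out, and the 25 were without siPVT1 replicate 3, where more of all genes were also called lower. The number of partner genes called higher was 17 and ranged from 14 in the 1.2-fold test to 19. Of all 19008 genes tested, 5612 were called higher as reported and 4302 in the 1.2-fold test. The log2 fold change of PVT1 ranged from −0.88 to −0.62. With the replicate number as a block, 6 subunits were called lower, 17 partner genes lower and 17 higher, and PVT1 stood at −0.72. Under that block, 5150 of 19008 genes tested were called lower and 5296 higher. Libraries with the same number did not deviate together (correlations over genes of −0.041, 0.038 and 0.0037), so the numbers were not taken to pair the libraries. With all 6 libraries, the 95% intervals of CCT5 and CCT8 included 0, and changes of their size were not detectable at this spread between libraries.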
